A study of Mus musculus with 31 samples.

Results

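The second mutant huntingtin allele was examined in the cortex of Q150 knock-in mice, in which the mouse's own huntingtin gene (Htt) carries an expanded CAG repeat. The 4 heterozygotes (HET) had 150 glutamines on 1 allele and 7 on the other, and the 4 homozygotes (HOMO) had 150 on both. All 8 mice were of the strain B6.129P2-Htttm2Detl/150J, with the mutant allele under the promoter of the mouse gene in every cell, so both groups carried mutant huntingtin. In the methods the Q150 mice were 7 months old, the Q175 mice used below 18 months and the R6/2 mice 3 months, while a checklist for the whole study gives ages in weeks and the labels give none. The HET mice had the numbers 2, 3, 78 and 420 and the HOMO mice 34, 35, 403 and 421, and the values below are given in that order. The 5 wild-type (WT) mice of the same files, with 7 glutamines on both alleles, are given beside them where the first allele matters, and the labels name no treatment. Of the 31 mice of the study, 8 entered the comparison, and all 1785 splicing events listed for both groups were tested.

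RASL-seq counts splice junctions of a fixed panel, by ligating 2 short DNA probes that sit side by side on a messenger RNA where 2 exons are joined and sequencing the ligated products. For each event, short counts come from RNA in which the flanking exons are joined directly and the alternative exon is skipped, while long counts come from RNA that includes it. Exclusion is the short count as a percent of short plus long. A change is the difference in log2(short/long) between HOMO and HET at the same series of mouse numbers, under 100 or in the 400s, so that 1.00 is a doubling of that ratio. An event is said to have passed when its limma p-value, adjusted by Benjamini-Hochberg over the 1785 events, was under 0.05. Huntington's disease is caused by an expanded CAG repeat in a single copy of the huntingtin gene, so most patients correspond to the HET state, and a knock-in homozygote lacks any normal huntingtin. HET and HOMO mice therefore differ both in having more mutant protein and in having no normal protein, and this design cannot tell these apart. Cassette exons are chosen or skipped by the spliceosome under the control of RNA-binding proteins, and neurons use many short exons of synaptic and cytoskeletal genes that other cells leave out.

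The second allele was accompanied by a change of 98 events in 93 genes, of which 87 had more exclusion in HOMO than in HET and 11 had less. The exons of 12 of them are printed first, because the values below are counts of RNA with and without these bases. The exon is in capitals and the 20 intron bases on each side are in lower case, 5′ to 3′ on the strand of the gene, in the GRCm38 build with the GENCODE annotation. Each exon was identified inside the named gene by the length of the span between its 2 flanking exons. The files give that span, but in positions that are not those of GRCm38. All 12 lie in coding sequence, and all but the Ptbp2 exon are a multiple of 3 bases long. The first 6 passed in a second line of mice as well, the next 4 are exons of enzymes and RNA-binding proteins with more exclusion in HOMO, and the last 2, of Numb and Nlgn1, had less.
Grin1, 63 bases, chr2:25311343-25311405, minus strand: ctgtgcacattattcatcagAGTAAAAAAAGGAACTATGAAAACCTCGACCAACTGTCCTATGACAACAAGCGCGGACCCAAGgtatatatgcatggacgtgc
mKIAA1232, 54 bases, chrX:100771307-100771360, plus strand: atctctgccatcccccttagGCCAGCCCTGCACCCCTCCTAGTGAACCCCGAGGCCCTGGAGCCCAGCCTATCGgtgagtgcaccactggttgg
Sars, 72 bases, chr3:108427861-108427932, minus strand: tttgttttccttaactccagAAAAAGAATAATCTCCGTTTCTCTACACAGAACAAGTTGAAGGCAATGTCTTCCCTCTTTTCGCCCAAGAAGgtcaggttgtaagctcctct
Centg1, 60 bases, chr10:127090142-127090201, plus strand: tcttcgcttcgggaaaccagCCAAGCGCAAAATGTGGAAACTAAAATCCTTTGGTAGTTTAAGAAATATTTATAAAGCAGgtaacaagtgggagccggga
Rnf112, 69 bases, chr11:61453428-61453496, minus strand: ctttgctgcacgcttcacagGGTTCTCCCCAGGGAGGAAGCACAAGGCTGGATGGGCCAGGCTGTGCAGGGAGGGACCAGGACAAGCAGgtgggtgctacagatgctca
Gripap1, 27 bases, chrX:7794260-7794286, plus strand: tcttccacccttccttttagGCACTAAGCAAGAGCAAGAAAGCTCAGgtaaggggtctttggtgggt
Acss2, 39 bases, chr2:155551190-155551228, plus strand: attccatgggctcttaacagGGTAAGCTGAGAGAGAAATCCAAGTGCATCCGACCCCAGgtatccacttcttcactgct
Cbs, 42 bases, chr17:31614529-31614570, minus strand: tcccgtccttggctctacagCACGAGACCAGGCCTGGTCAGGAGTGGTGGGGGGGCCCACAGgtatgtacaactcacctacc
G3bp2, 99 bases, chr5:92063337-92063435, minus strand: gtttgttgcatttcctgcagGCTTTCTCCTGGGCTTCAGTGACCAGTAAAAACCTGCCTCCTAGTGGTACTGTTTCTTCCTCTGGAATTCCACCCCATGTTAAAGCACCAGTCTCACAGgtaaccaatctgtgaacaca
Ptbp2, 34 bases, chr3:119724612-119724645, minus strand: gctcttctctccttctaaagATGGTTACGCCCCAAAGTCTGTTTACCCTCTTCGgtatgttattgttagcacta
Numb, 33 bases, chr12:83825259-83825291, minus strand: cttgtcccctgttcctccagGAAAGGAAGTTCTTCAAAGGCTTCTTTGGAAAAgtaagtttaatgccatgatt
Nlgn1, 60 bases, chr3:25920178-25920237, minus strand: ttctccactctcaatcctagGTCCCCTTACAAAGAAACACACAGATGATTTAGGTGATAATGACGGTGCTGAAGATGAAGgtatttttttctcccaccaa
The exon of Grin1 is the N1 cassette of the NMDA receptor subunit GluN1, that of Numb is the insert of its phosphotyrosine-binding domain, and that of Nlgn1 is an insert at splice site A. The exon listed as mKIAA1232 belongs to Dlg3 and that listed as Centg1 to Agap2.

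Averaged over the 1785 events, exclusion was 45.7%, 45.6%, 45.5% and 45.4% in the HET mice and 46.7%, 46.9%, 46.1% and 46.0% in the HOMO mice. All HOMO mice lay above all HET mice, and the HOMO mice with numbers under 100 lay above those in the 400s. The WT mice had 44.6% ± 0.175 (SD, n = 5), the HET mice 45.5% ± 0.145 (SD, n = 4) and the HOMO mice 46.4% ± 0.482 (SD, n = 4). At the same series, HOMO exceeded HET by 1.02 percentage points, and the two-sided exact permutation test within series gave p = 0.0333, the smallest that its 30 arrangements allow. The difference was 1.25 points among mice numbered under 100 and 0.602 points in the 400s, where a single HET mouse was available. The total of short and long counts was 3274965 to 4301775 per HET mouse and 3418794 to 5219877 per HOMO mouse, and these ranges overlapped. Cell type markers among the listed events were few. Summed as CPM (counts scaled to the total of the mouse), the 4 oligodendrocyte genes listed of 21 (Mag, Mbp, Mobp and Plekhb1) had 13104 to 23563 in HET and 11809 to 20892 in HOMO, the 2 astrocyte genes of 12 (Ndrg2 and Slc4a4) 11709 to 16771 and 10004 to 15611, and the neuronal genes Mapt and Syt1 28020 to 34866 and 28628 to 32359. The ranges overlapped for all 3 lists over both series. Within a series the astrocyte sum was lower in every HOMO mouse, with 11709 to 12249 in HET and 10004 to 10546 in HOMO under 100, and 16771 in the HET mouse and 14627 and 15611 in the HOMO mice of the 400s. The neuronal sum overlapped under 100 and was lower in both HOMO mice of the 400s (29231 and 32359, beside 34866), and the oligodendrocyte sum overlapped in both series. No gene named here was at 0, and among these genes the summed junctions of Slc4a4 alone passed as lower in HOMO (log2 -0.30). None of the 14 microglial genes was among the listed events. Neuronal markers were present in every mouse, and the part of shifts between cell types in the results below was not tested, since in bulk tissue fewer cells and less RNA per cell cannot be told apart.

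**Figure D1:**
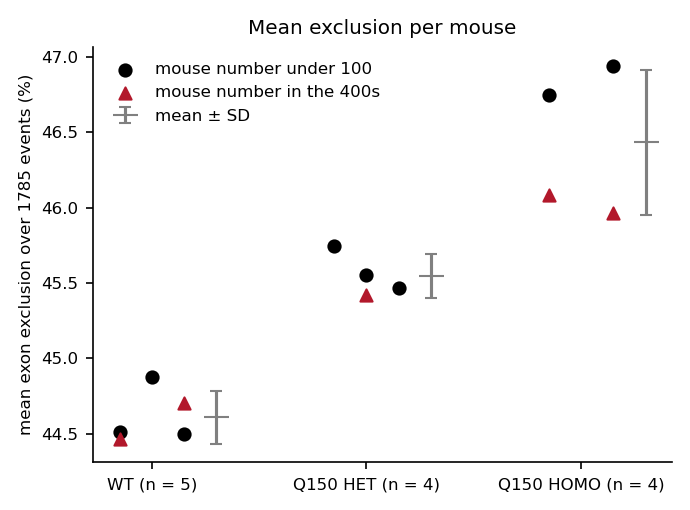
Mean exclusion over the 1785 events (percent, vertical axis) of each mouse of the Q150 files by genotype, 1 point per mouse, marked by series of mouse numbers, with the group mean and SD. The 4 HET mice sit between 45.4% and 45.7% and the 4 HOMO mice between 46.0% and 46.9%, with no overlap.

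The 98 events are 5.49% of those tested, the 87 with higher exclusion 4.87% and the 11 with lower exclusion 0.616%. The median change was 0.69 among the higher events and -0.69 among the lower ones, against 0.10 over all 1785 events, of which 63.8% lay above 0. In percentage points the higher events gained a median of 5.21, from 0.103 to 23.997. Of the 98, 97 were cassette exons, which make up 1720 of the 1785 events, and 1 of 20 alternative 5′ splice sites passed, in Clec16a. None of the 30 alternative 3′ splice sites and none of the 15 mutually exclusive exon pairs passed in limma. The 8 mice did not overlap in 61 of the 98 events, and 8.52% of all events had no overlap. In 91 of the 98 the HOMO mice lay on the same side of the HET mice in both series, which held for 18.4% of all events. Among the 87 higher events the median gain was 6.18 points among mice numbered under 100 and 5.12 points in the 400s, beside 0.549 and 0.316 points over all events. HOMO mouse 421 had the lowest exclusion of the 4 HOMO mice in 54 of these 87 events and HOMO mouse 35 the highest in 40. Since most events leaned to higher exclusion, each mouse was also centred on its median event. This left 71 events, 45 higher and 26 lower, and 56 of the 98 were among them, including all 11 lower ones.

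The number of events depended on the series term, on how their spread was estimated and on single mice. Without the series term 32 events passed, all of them among the 98. With no trend of the variance on the counts, no event passed in limma (smallest adjusted p = 0.0655), 289 had an unadjusted p under 0.05, and a quasi-binomial model of the counts called 83, of which 80 were among the 98. Leaving out 1 mouse gave 49 events without HOMO 35, 60 without HET 78, 64 without HOMO 403 and 117 without HOMO 421, with the other 4 mice in between. Of the 98, 32 passed in all 8 leave-outs, 21 in 6 or 7 and 31 in 3 or fewer. Of the events described below, those of Numb, Nlgn1, Gse1, Tia1, Ptbp2, Camk2b, Camk2d, Dlgap1, Epb4.1l3 (1 of its pair), Ap1b1, Setd3, Smarca2, Crtc2, Tmem55a, Mdmx, Fbxw11, Dock10, Cdc42se2, AK005608 and 6030446N20Rik were among these 31. In the quasi-binomial model the events of Ptbp2, Nlgn1, Camk2b, Dlgap1, Crtc2, Tmem55a, Fbxw11, Plekhb1, Cdc42se2, AK005608, 6030446N20Rik and 1 of Ank2 did not pass. With the WT mice added to the limma fit and the series as a term, 79 of the 98 passed. Among those that did not were the events of Numb, Nlgn1, Ptbp2, Camk2b, Camk2d, Dlgap1, Ap1b1, Setd3, Tmem55a and Cdc42se2, and 1 of Epb4.1l3. Depth also entered: 2.14% of events with a lowest count under 300 passed, 5.15% of those at 300 to 1000, 6.67% at 1000 to 3000 and 13.2% above. For the 98 events the 95% Wilson interval of exclusion in 1 mouse had a median half-width of 1.47 points and at most 18.9, which covers counting error only.

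**Figure D2:**
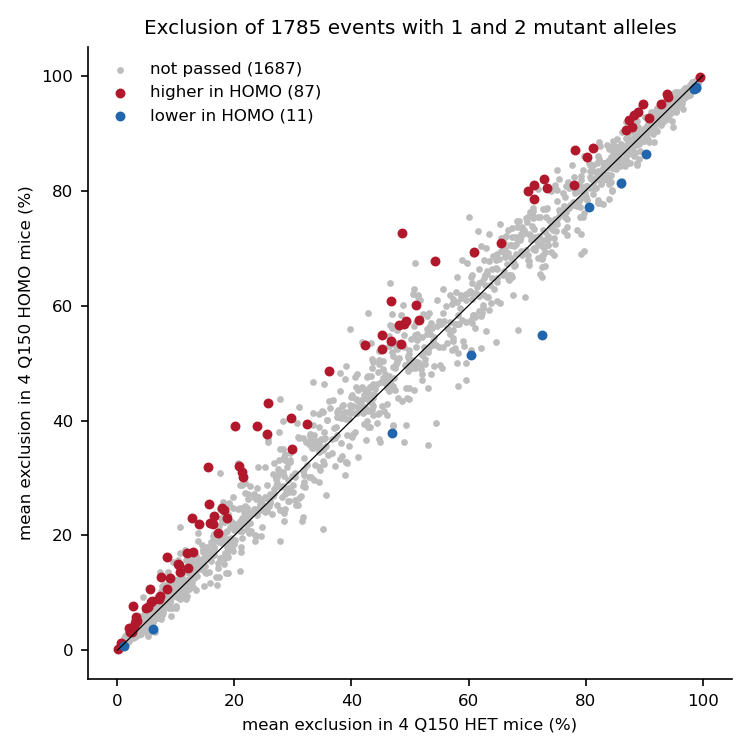
Mean exclusion in the 4 HOMO mice (percent, vertical axis) against that in the 4 HET mice (percent, horizontal axis) for each of the 1785 events, with the diagonal of equal exclusion. The 87 events with higher and the 11 with lower exclusion in HOMO are coloured, and the higher ones span the whole range of exclusion.

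The short and the long junction were also read apart, each scaled to the total of its mouse. In 72 of the 87 higher events the fitted value of the short junction was higher in HOMO and that of the long one lower, in 13 both were higher and in 2 both were lower, with median log2 differences of 0.46 for short and -0.18 for long. In all 11 lower events the short junction was lower and the long one higher. Over all 1785 events the short junction was higher and the long one lower in 529, and the reverse held in 234. The events that passed were chosen on the ratio of these counts, so their split was partly fixed by that choice. Over all events the medians were 0.10 for the short and 0.01 for the long junction. Acss2, a cytosolic and nuclear acetyl-CoA synthetase, differed mainly in the form with its 39-base exon, by -1.05 for the long junction and -0.20 for the short on the log2 scale. Rbm5, a splicing regulator, differed mainly in the skipped form, with 1.47 for short and -0.13 for long. The sum of both junctions stands for the level of the measured RNA, and 44 of 1785 events (2.46%) passed for it, 26 higher and 18 lower in HOMO, while after centring on the median event 79 passed, 11 higher and 68 lower. Of the 98, 8 passed for the sum (8.16%): it was lower for Rnf112 (-0.48), Fmnl1 (-0.39), Camta2 (-0.33) and Acss2 (-0.27), and higher for G3bp2 (0.38), Abat (0.51), Cdc42se2 (0.36) and Myn (0.27). After centring the 4 lower sums and that of G3bp2 still passed, and those of Abat, Cdc42se2 and Myn did not (adjusted p = 0.063, 0.0815 and 0.0828). These sums are less firm than the exclusion values, because none passed without the series term or without HOMO 35.

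**Figure D3:**
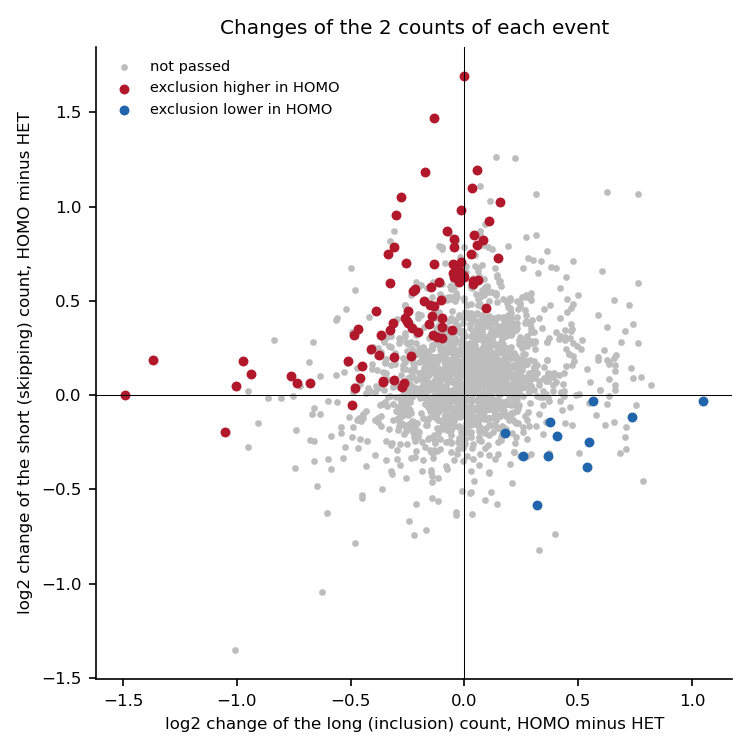
Log2 difference of the short junction (vertical axis) against that of the long junction (horizontal axis) between HOMO and HET, after scaling to each mouse's total, for the 1785 events. The higher events gather where short is above 0 and long below, and the 11 lower events lie in the opposite quadrant. Their choice on the ratio of the counts partly fixes this.

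Q175 knock-in mice, with 175 glutamines on 1 or both alleles, offered the same comparison in mice that the Q150 test did not use. Between 3 Q175 HOMO and 4 Q175 HET mice, 16 of 1839 events passed (0.87%). This count was 0 without the variance trend and 11 to 21 when 1 mouse was left out. The HET mice had numbers of 3 digits and the HOMO mice of 4, and the WT mice of the Q175 files had both, so a fit with these WT mice and that series as a term was added after seeing the data. In it 3 of 1839 events passed, all with higher exclusion in HOMO. Of the 98 Q150 events, 96 were listed there and 9 passed (9.38%), beside 16 of the 1731 shared events (0.924%), and all 9 had more exclusion in HOMO in both lines. They belong to Hnrpdl, Dlg3, Rnf112, Agap2, Sltm, Ahi1, Gripap1, Grin1 and Sars, and they were picked after their values had been seen. All 9 passed in each of the 8 Q150 leave-outs. Without the Q150 series term the events of Ahi1, Agap2 and Grin1 did not pass in limma (adjusted p = 0.256, 0.119 and 0.0938). With the Q175 series as a term all 9 kept their direction, with Q175 changes from 0.36 to 1.29 and unadjusted p from 3.15e-08 to 0.0156, but only Hnrpdl and Rnf112 still passed in Q175. Their changes ran from 0.52 to 0.96 in Q150 and from 0.44 to 0.99 in Q175, and the smallest adjusted p of the difference between lines was 0.643, which does not show that the lines are equal.

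Hnrpdl encodes an RNA-binding protein of the hnRNP D family. Exclusion of its 171-base exon was 3.29%, 3.02%, 3.60% and 2.84% in the HET mice and 6.01%, 7.55%, 5.40% and 4.03% in the HOMO mice, with short counts of 293 to 361 and 524 to 618. All HOMO mice were above all HET mice, and the pair of HOMO mice numbered under 100 were the highest. The change was 0.96 ± 0.13 (SE), adjusted p = 1.94e-05 in limma, from 3.19% ± 0.334 to 5.75% ± 1.46 (SD, n = 4 each), beside 1.04% ± 0.112 in WT. In Q175 mice it went from 2.50% ± 0.134 (n = 4) to 4.86% ± 0.184 (n = 3), a change of 0.99 ± 0.11. A second exon of Hnrpdl, of 105 bases, moved the opposite way in the same mice. Its exclusion was 86.0%, 86.1%, 84.5% and 87.4% in HET and 82.5%, 80.2%, 82.3% and 80.6% in HOMO, again with no overlap but with HOMO lower. The change was -0.52 ± 0.09 (SE), adjusted p = 0.000507, and in WT mice exclusion was 86.1% ± 0.703, the level of the HET mice. Both Hnrpdl events passed in all 8 leave-outs.

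Dlg3 and Grin1 act together at the excitatory synapse, where Dlg3 (SAP102) is a scaffold that binds NMDA receptors and Grin1 encodes their obligatory subunit. Exclusion of the 54-base exon of Dlg3 was 74.1%, 75.9%, 71.1% and 70.7% in HET and 83.8%, 82.8%, 82.8% and 78.7% in HOMO. The lowest HOMO mouse was above the highest HET mouse. The change was 0.82 ± 0.12 (SE), adjusted p = 5.75e-05, from 73.0% ± 2.47 to 82.0% ± 2.29 (SD, n = 4 each), and in Q175 0.92 ± 0.13. Exclusion of the N1 cassette of Grin1 was 50.1%, 54.4%, 49.7% and 43.0% in HET and 54.3%, 63.5%, 57.5% and 53.9% in HOMO. The groups overlapped here, since HET mouse 3 reached the level of HOMO mouse 34. At the same series the change was 0.55 ± 0.10 (SE), adjusted p = 0.00103, from 49.3% ± 4.74 to 57.3% ± 4.43, and the WT mice had 36.7% ± 7.85. In Q175 the N1 cassette went from 34.4% ± 1.44 to 43.0% ± 2.97, a change of 0.52 ± 0.09. The other listed events of Dlg3 and Grin1 did not pass in Q150. Gripap1 (GRASP-1) regulates the recycling of AMPA receptors through endosomes, and 2 of its exons passed. Exclusion of the 27-base exon was 14.5%, 16.8%, 16.3% and 16.0% in HET and 21.6%, 23.6%, 22.8% and 20.9% in HOMO, with no overlap. The change was 0.61 ± 0.09 (SE), adjusted p = 0.000104, and in Q175 0.59 ± 0.10. The 48-base exon of the same gene went from 29.6% ± 5.19 to 40.4% ± 4.77, a change of 0.83 ± 0.15 with adjusted p = 0.000876, also with no overlap.

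The other 5 events of this group belong to genes of unlike roles. Rnf112, a RING-finger GTPase of the nervous system, had 25.9%, 27.7%, 22.3% and 26.6% exclusion of its 69-base exon in HET and 43.0%, 33.0%, 41.2% and 33.5% in HOMO. No mice overlapped, and the change was 0.80 ± 0.14 (SE), adjusted p = 0.000755, and 0.65 ± 0.12 in Q175. Sars, the cytosolic seryl-tRNA synthetase, had 72.9%, 70.4%, 69.2% and 72.3% exclusion of its 72-base exon in HET and 77.1%, 76.8%, 81.8% and 78.6% in HOMO. Again the groups were apart, and the change was 0.52 ± 0.10 (SE), adjusted p = 0.00219, and 0.70 ± 0.11 in Q175. Agap2 (PIKE), a GTPase that activates kinase signalling in neurons, had 9.71%, 9.51%, 11.9% and 10.3% in HET and 15.4%, 21.7%, 12.7% and 10.6% in HOMO. The groups overlapped over all 8 mice but not within either series, with a change of 0.69 ± 0.13 (SE), adjusted p = 0.00116, and 0.44 ± 0.09 in Q175. Ahi1, a protein of the primary cilium that binds the huntingtin-associated protein Hap1, had 53.2%, 48.6%, 48.1% and 42.3% in HET and 59.4%, 67.6%, 49.0% and 50.2% in HOMO. It too was apart only within the series, with a change of 0.67 ± 0.12 (SE), adjusted p = 0.00102, and 0.52 ± 0.13 in Q175, and its WT mean was 35.8% ± 4.47. Sltm, a modulator of transcription with an RNA-binding domain, went from 3.28% ± 0.619 to 5.35% ± 0.970, a change of 0.69 ± 0.14 with adjusted p = 0.00219, and 0.52 ± 0.13 in Q175.

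**Figure D4:**
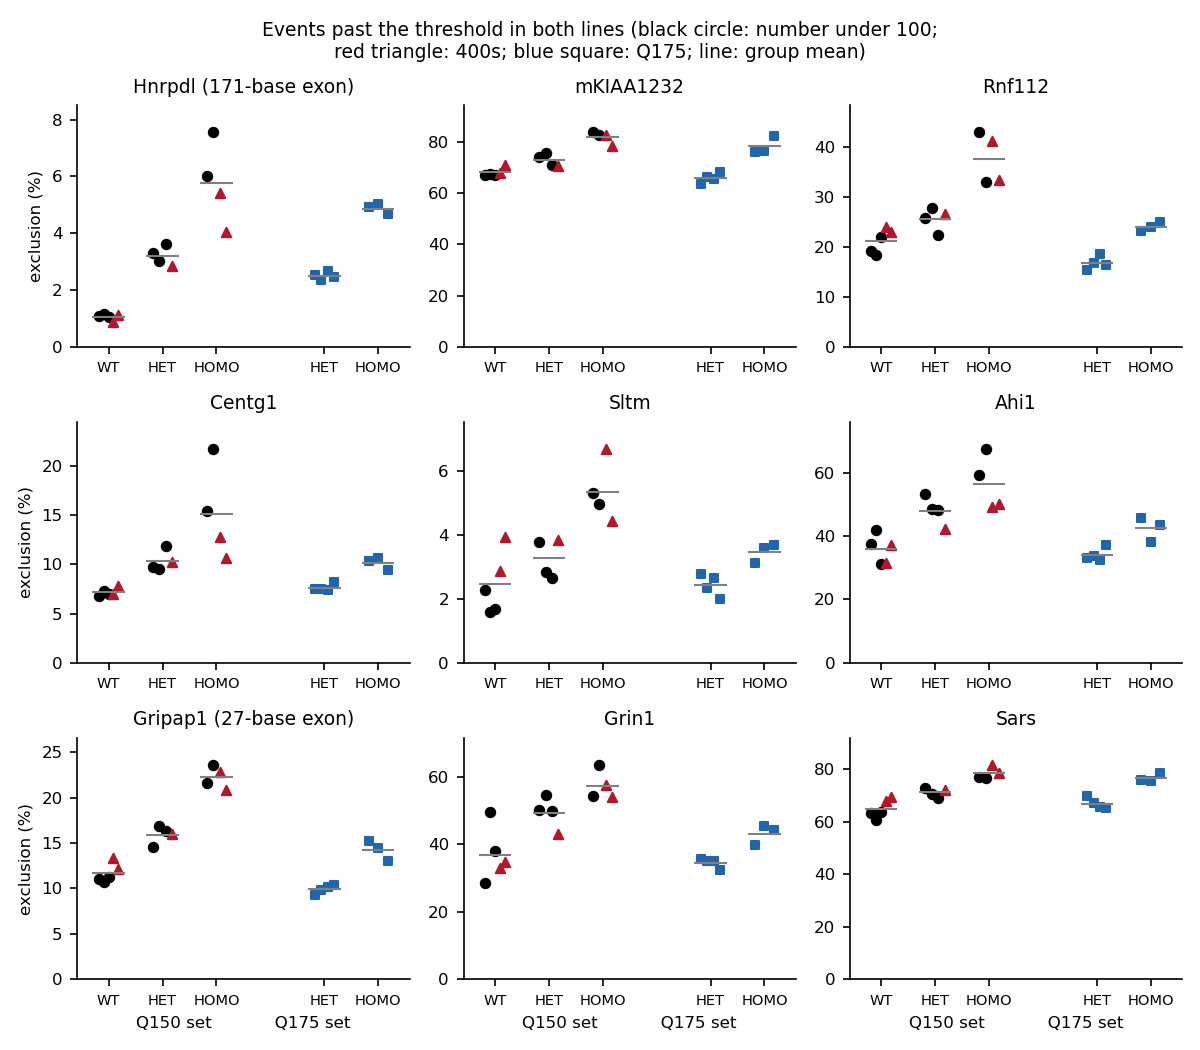
Exclusion (percent, vertical axes) of the 9 events that passed between HOMO and HET in both lines, 1 panel per event and 1 point per mouse of the Q150 set (WT, HET and HOMO) and of the Q175 set (HET and HOMO), with a line at each group mean. Each HOMO mean lies above the HET mean of its line.

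Among 82 events of 63 genes of splicing factors and other RNA-binding proteins, 8 passed with higher and 1 with lower exclusion (10.98%, beside 5.49% of all events), and the median change was 0.08 beside 0.10 over all events. The members had a median lowest count of 1052.5, above the 516 of all events, and 8 events of this list passed after centring. The largest change was in Rbm5, which regulates the choice of splice sites in apoptosis genes. Exclusion of its 85-base exon, which shifts the reading frame, was 3.64%, 2.28%, 2.82% and 2.20% in HET and 10.5%, 5.96%, 8.81% and 5.81% in HOMO, on short counts of 12 to 24 and 39 to 70. Every HOMO mouse exceeded every HET mouse. The change was 1.60 ± 0.28 (SE), adjusted p = 0.000466, from 2.73% ± 0.660 to 7.78% ± 2.30 (SD, n = 4 each), and it passed in all 8 leave-outs. The other exons of Rbm5 did not pass: the 74-base exon had 6.05% ± 0.861 and 7.31% ± 0.628 (adjusted p = 0.259) and the 61-base exon 6.62% ± 1.51 and 8.94% ± 1.25 (adjusted p = 0.284). Ptbp2, the neuronal polypyrimidine tract-binding protein, had 2.21%, 2.35%, 1.98% and 2.29% exclusion of its 34-base exon in HET and 3.13%, 3.21%, 3.94% and 2.83% in HOMO. Groups were apart, with a change of 0.56 ± 0.17 (SE) and adjusted p = 0.0459, which passed in only 1 of 8 leave-outs. Sfrs8 (Sfswap), a splicing regulator, went from 81.2% ± 2.21 to 87.4% ± 3.21 with a change of 0.74 ± 0.17 and adjusted p = 0.00803, and Hnrnph2, of the hnRNP H family, from 3.31% ± 0.714 to 5.03% ± 0.653 with 0.72 ± 0.14 and adjusted p = 0.0013; both passed in 7 leave-outs. Tsr1, a ribosome maturation factor that was on this list by choice, had 1.58%, 1.64%, 2.80% and 1.75% in HET and 4.20%, 4.01%, 3.56% and 3.49% in HOMO. HET mouse 78 stood above the other HET mice but below all HOMO mice, and the change was 1.06 ± 0.27 (SE) with adjusted p = 0.0175. Tia1, a protein of stress granules, and Rbm34 passed with adjusted p = 0.0362 and 0.0221, with changes of 0.68 and 0.41.

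Among 83 events of 53 genes of channels, receptors and synaptic proteins, 9 passed with higher and 1 with lower exclusion (12.05%), beside 5.49% of all events, with a median of 0.08 and a median lowest count of 876. After centring, 5 events of the list passed, those of Dlg3, Grin1, Slc30a9, Camk2g and Nlgn1. CaMKII is a kinase that phosphorylates receptors at active synapses, and of 10 events in its subunit genes Camk2b, Camk2d and Camk2g 3 passed without centring, 1 in each gene. Camk2d went from 0.800% ± 0.106 to 1.18% ± 0.279 (change 0.64 ± 0.17, adjusted p = 0.0253) and Camk2g from 5.24% ± 0.738 to 7.54% ± 0.884 (0.61 ± 0.14, adjusted p = 0.009). The 75-base exon of Camk2b had 24.5%, 21.1%, 20.1% and 5.59% in HET and 28.6%, 33.0%, 22.5% and 15.2% in HOMO. The groups were apart within each series but overlapped between them, with a change of 1.09 ± 0.31 (SE) and adjusted p = 0.0311. The Camk2d and Camk2b events each passed in 3 of 8 leave-outs and that of Camk2g in 6, and Camk2b did not pass in the quasi-binomial model (adjusted p = 0.0695). The other 7 CaMKII events had fitted changes from -0.55 to 1.18 with adjusted p from 0.0734 to 0.785, the largest in another Camk2b event with 27.8% ± 7.46 in HET and 43.8% ± 12.2 in HOMO. Slc30a9, of the zinc transporter family, had one of the 2 smallest p-values of the comparison. Its exclusion was 7.65%, 7.13%, 6.86% and 8.09% in HET and 13.6%, 13.6%, 13.3% and 10.6% in HOMO, and HOMO mouse 421 was below the other HOMO mice but above every HET mouse. The change was 0.87 ± 0.10 (SE), adjusted p = 9.18e-06, from 7.44% ± 0.547 to 12.8% ± 1.46 (SD, n = 4 each), beside 5.98% ± 1.03 in WT. Epb4.1l3 (protein 4.1B), which ties membrane proteins to the cytoskeleton, passed for 2 exons, with changes of 0.54 ± 0.14 and 0.68 ± 0.19. Its other listed events did not pass. The postsynaptic scaffold gene Dlgap1 passed for its 30-base exon, with 0.46 ± 0.14 and adjusted p = 0.0474. The Dlgap1 event passed in 1 of 8 leave-outs, and it did not pass in the quasi-binomial model (adjusted p = 0.0633) or with the WT mice in the fit (adjusted p = 0.0517). The exception in direction was Nlgn1, a postsynaptic adhesion protein that binds neurexins. Exclusion of its 60-base exon was 92.4%, 86.7%, 87.3% and 94.8% in HET and 80.5%, 83.8%, 90.5% and 90.5% in HOMO. HOMO lay below HET within each series, with a change of -0.86 ± 0.25 (SE) and adjusted p = 0.0448, which passed in 1 of 8 leave-outs. With the WT mice in the limma fit, the events of Nlgn1, Camk2b, Camk2d and 1 of Epb4.1l3 did not pass either (adjusted p = 0.188, 0.0784, 0.0709 and 0.0516).

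Among 92 events of 53 cytoskeleton and motor genes, 9 passed, all with higher exclusion (9.78%, beside 5.49% of all events), with a median of 0.11 and a median lowest count of 1153, and 6 passed after centring. Sorbs2, an adaptor that links membrane signalling to actin, had 17.1%, 20.8%, 24.7% and 20.6% exclusion of its 93-base exon in HET and 36.5%, 35.4%, 30.1% and 26.3% in HOMO. The groups did not overlap. The change was 0.92 ± 0.13 (SE), adjusted p = 5.75e-05, from 20.8% ± 3.09 to 32.1% ± 4.75 (SD, n = 4 each). Of the 5 other Sorbs2 events none passed in limma, and their fitted changes ran from -0.19 to 0.49, with adjusted p from 0.0721 to 0.982. Fmnl1, a formin that elongates actin filaments, had 39.8%, 39.0%, 35.5% and 30.0% exclusion of its 99-base exon in HET and 45.0%, 58.8%, 47.9% and 42.7% in HOMO. These mice were apart as well, with a change of 0.86 ± 0.13 (SE) and adjusted p = 9.47e-05. Both of these passed in all 8 leave-outs. Ank2 encodes ankyrin-B, which anchors channels and cell adhesion proteins to spectrin, and its 99-base exons behaved unlike each other. One had 31.1%, 35.3%, 31.5% and 31.9% in HET and 39.4%, 39.5%, 39.2% and 39.6% in HOMO, with no overlap and a change of 0.45 ± 0.10 (SE), adjusted p = 0.00486. Another had 15.2%, 38.3%, 36.2% and 13.2% in HET and 48.2%, 24.1%, 60.9% and 39.0% in HOMO, values so spread within groups that they overlapped in the series under 100, with a change of 1.26 ± 0.36 and adjusted p = 0.0362. The last 99-base exon had 96.9% ± 1.25 and 97.1% ± 1.33 (adjusted p = 0.984), and a 24-base exon 0.191% ± 0.0388 and 0.206% ± 0.0196 (adjusted p = 0.803). Mtap7d2, of the MAP7 family of microtubule proteins that assist kinesin, was also checked by RT-PCR in the study. Its exclusion was 2.50%, 2.29%, 2.70% and 2.10% in HET and 4.46%, 3.84%, 3.64% and 2.97% in HOMO, with no overlap, and a change of 0.72 ± 0.15 (SE), adjusted p = 0.00424, that passed in all 8 leave-outs. Its WT mean was 2.40% ± 0.501, beside 2.40% ± 0.260 in HET. The events of the list that passed also include one of Macf1 (0.69) and the pair of Epb4.1l3 exons given above.

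Of 70 events of 52 genes of transcription and chromatin, 4 passed with higher and 1 with lower exclusion (7.14%, beside 5.49%), with a median of 0.13 and a median lowest count of 425.5, and 3 passed after centring. Chd5, a chromatin remodeller of neurons, had 72.7%, 72.7%, 72.5% and 75.7% exclusion of its 115-base exon in HET and 81.3%, 78.4%, 82.0% and 79.9% in HOMO. HET mouse 420 was above the other HET mice and below all HOMO mice, and the change of 0.53 ± 0.10 (SE), adjusted p = 0.00131, passed in all 8 leave-outs. Jarid1c (Kdm5c), a demethylase of histone H3 lysine 4, went from 16.3% ± 4.32 to 21.9% ± 5.23 with a change of 0.72 ± 0.17 and adjusted p = 0.00803. Setd3, on this list by its SET domain though it methylates actin, changed by 0.40 ± 0.11 (adjusted p = 0.0328), and Smarca2, an ATPase of the SWI/SNF remodellers, by 0.33 ± 0.09 (adjusted p = 0.0278). Gse1 went the other way, from 80.5% ± 2.13 to 77.1% ± 3.48, with -0.38 ± 0.11 and adjusted p = 0.0375. The Setd3, Smarca2 and Gse1 events each passed in 2 of 8 leave-outs, and Setd3 did not pass with the WT mice in the fit (adjusted p = 0.0604). Of 44 events of 37 endocytosis and vesicle traffic genes, 1 passed in each direction (4.55%), near the 5.49% of all events, with a median of 0.12 and a median lowest count of 957.5, and 2 events of the list passed after centring. Numb, an endocytic adaptor that restrains Notch signalling, had 98.9%, 99.2%, 98.9% and 98.6% exclusion of its 33-base exon in HET and 98.1%, 98.2%, 97.7% and 97.8% in HOMO. The exon is thus nearly always left out, and HOMO mice were all below HET mice, with a change of -0.80 ± 0.23 (SE) and adjusted p = 0.0362, which passed in 2 of 8 leave-outs. Ap1b1, a subunit of the AP-1 clathrin adaptor, went from 11.8% ± 3.18 to 16.9% ± 3.43 for a 21-base exon, with 0.74 ± 0.21 and adjusted p = 0.0374. With the WT mice in the limma fit neither the Ap1b1 nor the Numb event passed (adjusted p = 0.0898 and 0.0502).

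Of the 98 events, 65 belong to genes on none of these lists, among them several of the firmest. G3bp2, which helps to assemble stress granules, had 71.1%, 70.4%, 70.2% and 72.7% exclusion of its 99-base exon in HET and 80.1%, 82.0%, 82.6% and 79.2% in HOMO. A clear gap separated the groups, and the change was 0.78 ± 0.10 (SE), adjusted p = 9.18e-06, from 71.1% ± 1.16 to 81.0% ± 1.57 (SD, n = 4 each), beside 66.9% ± 3.59 in WT. Acss2 had 88.4%, 87.4%, 87.6% and 89.4% in HET and 92.9%, 93.9%, 93.3% and 92.4% in HOMO. All HOMO mice were above all HET mice, with a change of 0.85 ± 0.12 (SE) and adjusted p = 5.75e-05. Nasp, a chaperone of histones, had 87.5%, 90.1%, 90.4% and 91.0% exclusion of a 975-base exon in HET and 95.6%, 95.4%, 95.4% and 94.1% in HOMO. HOMO mouse 421 was the lowest HOMO mouse and still above every HET mouse, and the change was 1.15 ± 0.20 (SE), adjusted p = 0.000445. Cbs, which makes cystathionine from homocysteine, had 57.1%, 48.7%, 53.4% and 58.0% exclusion of its 42-base exon in HET and 71.2%, 65.7%, 67.0% and 67.3% in HOMO, on fewer counts (332 at the least). These mice were apart, with a change of 0.81 ± 0.17 (SE) and adjusted p = 0.00349. Bclaf1, a protein of transcription and mRNA processing complexes, went from 13.9% ± 3.37 to 21.9% ± 1.08 for a 147-base exon (0.87 ± 0.20, adjusted p = 0.00842), while its 162-base exon had 90.4% ± 1.12 and 90.04% ± 0.826 (adjusted p = 0.916). Dnajc8, a co-chaperone of the spliceosome, went from 5.76% ± 1.01 to 8.35% ± 1.67 (0.70 ± 0.12, adjusted p = 0.000291). The events of Dnajc8, G3bp2, Acss2 and Cbs were named after their values had been seen, and these 4, like Nasp, passed in all 8 leave-outs.

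Some of the largest changes on the log2 scale were at the ends of the range or on few counts. Plekhb1, a gene of myelinating cells and photoreceptors, had exclusion of only 0.0436%, 0.108%, 0.0172% and 0.0322% in HET and 0.148%, 0.0831%, 0.211% and 0.172% in HOMO, on short counts of 4 to 32 and 18 to 38. HET mouse 3 lay above HOMO mouse 35, and the change of 1.70 ± 0.42 (SE), adjusted p = 0.0132, did not pass in the quasi-binomial model (adjusted p = 0.0893). Rhot1 (Miro1), which ties mitochondria to motors, was near the other end, at 99.5% ± 0.117 and 99.8% ± 0.0428, with a change of 1.49 ± 0.37 and adjusted p = 0.0149. Its long counts were only 12 to 21 in HET and 4 to 10 in HOMO, and its other event did not pass. AK005608 had the fewest counts of the 98, 22 in 1 mouse, with 52.2%, 37.0%, 51.4% and 53.8% in HET and 81.8%, 76.7%, 68.0% and 63.8% in HOMO. The groups were apart although HET mouse 3 was far below the other HET mice, and the change was 1.56 ± 0.44 (SE) with adjusted p = 0.033. Ikzf4, a zinc-finger transcription factor, went from 20.1% ± 5.91 to 39.1% ± 4.50 (1.36 ± 0.34), Tmem80 from 15.4% ± 4.93 to 31.9% ± 5.19 (1.33 ± 0.29), Vwa5a from 23.95% ± 1.30 to 39.0% ± 5.20 (1.00 ± 0.25) and Tmem55a from 8.57% ± 2.08 to 16.3% ± 4.37 (1.14 ± 0.34), with lowest counts of 54, 143, 114 and 108. Their adjusted p were 0.0145, 0.00443, 0.0142 and 0.0448. Their WT means were 21.8%, 19.4%, 23.3% and 10.9%. Peli3, a ubiquitin ligase of innate immune signalling, changed by 1.09 ± 0.25 (adjusted p = 0.00688), Crtc2, a coactivator of CREB, by 1.05 ± 0.32 (adjusted p = 0.0481), and the listed gene 6030446N20Rik by 1.05 ± 0.28 (adjusted p = 0.0245). Mdmx (Mdm4), an inhibitor of p53, was measured by 2 events over the same span: one went from 12.7% ± 3.73 to 23.0% ± 3.49 and passed (adjusted p = 0.0315), and the other had 39.8% ± 10.8 and 56.0% ± 10.4 and did not (adjusted p = 0.179). Tmem55a and Mdmx passed in 1 of 8 leave-outs, Crtc2 in 2, and AK005608 and 6030446N20Rik in 3, and in the quasi-binomial model Crtc2 (adjusted p = 0.108), Tmem55a (0.0624), AK005608 (0.0622) and 6030446N20Rik (0.0584) did not pass. Probes over the same exon thus gave unlike levels, and over the 19 spans listed in 2 events the median gap in HET exclusion was 7.39 points.

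The 11 events with more inclusion in HOMO included Hnrpdl, Nlgn1, Gse1 and Numb, given above, and 3 of the 11 passed in all 8 leave-outs. Ttc3, a ubiquitin ligase that targets Akt, had 5.58%, 5.92%, 5.82% and 7.42% exclusion of its 46-base exon in HET and 2.98%, 3.26%, 3.65% and 4.91% in HOMO. All HOMO mice were below all HET mice, with a change of -0.90 ± 0.14 (SE), adjusted p = 8.26e-05, from 6.19% ± 0.833 to 3.70% ± 0.851 (SD, n = 4 each), beside 9.66% ± 0.753 in WT. The other 3 Ttc3 events had positive fitted changes of 0.33, 0.19 and 0.30 and did not pass (adjusted p = 0.381, 0.464 and 0.75). Clec16a, a regulator of endosomes and mitophagy, had 59.3%, 59.4%, 61.7% and 61.4% exclusion at its alternative 5′ splice site in HET and 49.6%, 48.2%, 52.8% and 54.8% in HOMO. HOMO was again below HET without overlap, with a change of -0.58 ± 0.08 (SE) and adjusted p = 4.79e-05. Sp100, a component of nuclear bodies, had the widest fall in points, from 72.5% ± 5.79 to 54.8% ± 11.9, with -0.92 ± 0.19 and adjusted p = 0.00409. Eif4a2, an RNA helicase of translation initiation, left its 107-base exon out in 98.2%, 98.8%, 98.7% and 98.3% of counts in HET and 97.9%, 97.5%, 97.3% and 98.1% in HOMO. The gap is small but without overlap, on at least 19333 counts, with a change of -0.59 ± 0.14 (SE) and adjusted p = 0.00794. Fbxw11, a ubiquitin ligase subunit, went from 98.9% ± 0.533 to 97.8% ± 0.366 (-1.08 ± 0.32, adjusted p = 0.0448), while a second event over the same span had 77.8% ± 2.19 and 78.1% ± 0.506 (adjusted p = 0.896). The first passed in 1 of 8 leave-outs and did not pass in the quasi-binomial model (adjusted p = 0.0773). Dock10, a guanine nucleotide exchange factor, and Cdc42se2, an effector of Cdc42, completed the 11 with changes of -0.62 ± 0.19 and -0.69 ± 0.20, and that of Cdc42se2 did not pass in the quasi-binomial model (adjusted p = 0.0668).

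Whether the HOMO to HET step differed from the HET to WT step was tested in the 13 mice of the Q150 files. The steps share the HET mice, and their signed difference does not show which of them was larger. One event of 1785 passed (0.056%), in Mag, the myelin-associated glycoprotein of oligodendrocytes, where the 45-base exon is the alternative one. Exclusion was 14.03%, 13.9%, 11.9% and 12.7% in HET and 14.95%, 17.97%, 22.0% and 13.9% in HOMO, beside 21.6% ± 2.34 (SD, n = 5) in WT. The HET mean was thus below both the WT and the HOMO mean, and the steps differed by 1.26 ± 0.22 (SE), adjusted p = 0.00389. The result was lost without HET 78, without HET 420, without the series term and without the variance trend, and the HOMO to HET change alone, 0.43 ± 0.13, did not pass (adjusted p = 0.0535). The summed oligodendrocyte markers, of which Mag is one, overlapped between the groups, and their part in this value was not tested. Mlx, a transcription factor of glucose sensing that the study also checked by RT-PCR, had 23.9%, 23.1%, 22.6% and 33.1% in HET and 37.7%, 34.0%, 42.8% and 30.7% in HOMO. HET mouse 420 lay within the HOMO range, and the change of 0.65 ± 0.21 (SE) did not pass (adjusted p = 0.0694). Most of the 98 events sat in order on the means: in 71 of the 87 higher ones WT was below HET and HET below HOMO, and in 7 of the 11 lower ones the order was the reverse, beside 725 and 276 of all 1785 events, with the HET to HOMO step of the order fixed by the choice of the 98. Among the 87, the median difference was 0.29 from WT to HET and 0.95 from WT to HOMO on the log2 scale, values that share the WT mice and were partly fixed by how the 87 were chosen.

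R6/2 mice, which carry a transgenic fragment of human huntingtin beside both normal mouse alleles, were a second set that the Q150 test did not use. Between 3 R6/2 HD and 3 R6/2 WT mice, 498 of 1743 events passed (28.6%), and no series of mouse numbers held both groups, so series and genotype cannot be told apart there. Of the 92 Q150 events listed there 66 passed (71.7%), 61 higher and 5 lower, each in its Q150 direction, beside 29.3% of the 1680 shared events. Depth bears on this share, so it was also read among events with a lowest count of 1000 or more, where 44 of 56 of the Q150 events passed in R6/2 (78.6%) and 208 of 550 of the others (37.8%). In Q175 the same split gave 8 of 57 (14.04%) and 5 of 558 (0.896%). The 9 events of both knock-in lines all passed in R6/2, with changes from 1.45 to 4.72, the largest in Hnrpdl (4.72 ± 0.18). In Q175 the median of the 85 higher events listed was 0.23, beside 0.03 over all shared events, and 71 of the 85 lay above 0, beside 56.6%. None of the 11 lower events passed in Q175 in limma, and 3 of them lay above 0. Between the lines the change differed in 1 of 1731 events (0.0578%), the 106-base exon of Nbr1, an autophagy receptor, and line and age cannot be told apart. Its exclusion was 3.08%, 2.72%, 3.11% and 2.99% in Q150 HET and 5.60%, 5.59%, 4.09% and 3.60% in Q150 HOMO, with no overlap and a change of 0.75 ± 0.13 (SE), adjusted p = 0.000728. In Q175 it was 2.94%, 2.77%, 2.56% and 2.34% in HET and 2.19%, 2.32% and 2.33% in HOMO, a change of -0.22 ± 0.14, and the lines differed by 0.97 ± 0.19 (SE), adjusted p = 0.0206. That test had no term for the Q175 series of mouse numbers, which among the Q175 mutant mice cannot be told apart from genotype. The count of events that differed ran from 0 to 9 when single mice were left out and was 0 without the variance trend. A second Nbr1 exon, of 111 bases, went from 45.3% ± 5.85 to 54.8% ± 7.14 in Q150 (0.71 ± 0.16, adjusted p = 0.00792).

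**Figure D5:**
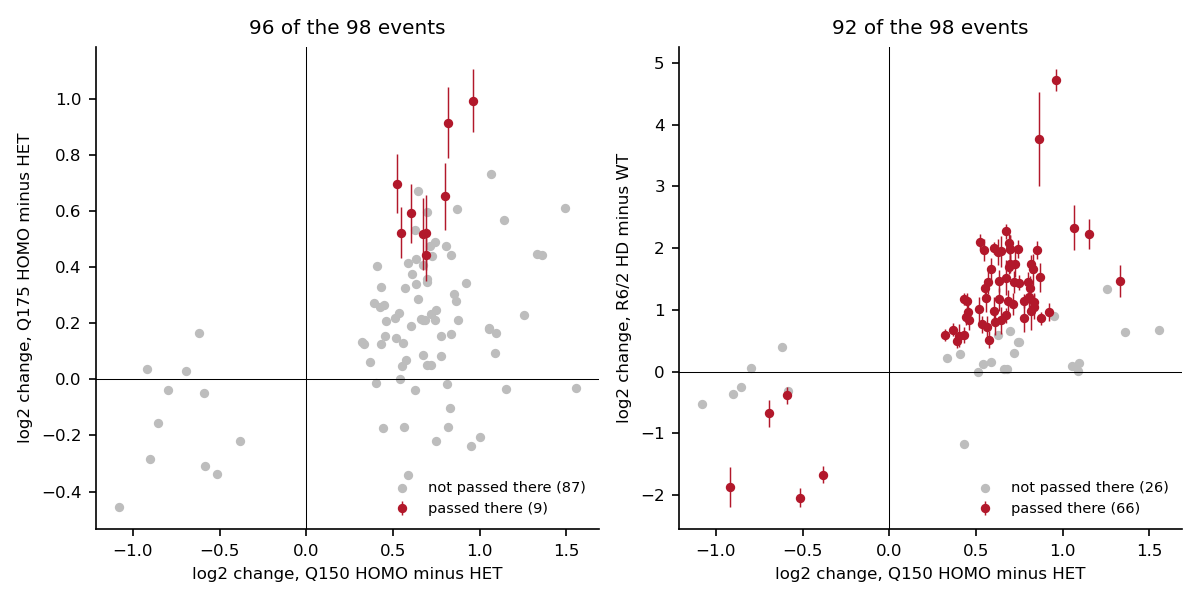
Change of the Q150 events between HOMO and HET (log2 short to long ratio, horizontal axes) against the HOMO to HET change in Q175 mice and the HD to WT change in R6/2 mice (log2, vertical axes), 1 point per event of the 98 that was listed there. Red points passed in those mice and carry their SE, 9 in Q175 and 66 in R6/2, where the vertical axis reaches further.

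The exons of the events that passed were compared with all events on features that the test did not use, as descriptions. A single exon matched for 85 of the 98 events and for 1418 of all 1785. The 85 exons had a median length of 88 bases and the 1418 of 90, 65.9% of each were a multiple of 3, and 74.1% and 69.2% lay in coding sequence. Microexons of up to 51 bases were 18.8% of the 85 and 22.0% of the 1418. The shorter of the 2 neighbouring introns had a median of 870 bases beside 1203.5 and the whole span 3985 beside 5610. In WT mice exclusion was under 10% for 28.6% of the 98 events and 23.6% of all, between 10% and 90% for 62.2% and 61.6%, and above 90% for 9.18% and 14.7%. Short sequence motifs were searched on the transcript strand in the 200 bases on each side of the exon, for the 75 and 1287 exons whose introns are that long. TGTGT, a run of bases bound by TDP-43 and CELF proteins, was beside 65.3% of the 75 exons and 63.6% of all, and inside 5.33% and 10.02%. TGACT, written as DNA, is one of the contexts in which adenosine can be methylated to m6A, and it was beside 46.7% and 41.7%, and inside 9.33% and 10.4%. TGCATG, the RBFOX motif, was beside 26.7% and 23.2%, and a match of letters is not a bound site.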

How the data were processed

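Total RNA of the cortex of 1 hemisphere per mouse had been made into RASL-seq libraries by the authors, 1 per mouse. What the authors deposited, per the file headers, is a short and a long count for every event, as whole numbers without normalization, a unit recorded here as other. That unit was chosen because large values carry commas, which were removed, and limma on log ratios was the test. No molecular identifiers are stated, so intervals cover counting error only. The aligner is not given in the sources used here. The labels list mm10, but of 1747 events whose symbol is in the RefSeq table only 245 lie inside that gene on GRCm38, so positions in the files were not used as coordinates. Cassette exons were found by exact length of the span within the gene, and 1418 of 1720 matched exactly 1 exon. The genotype field opens with another line's name for the Q150 mutants, and the glutamine numbers were used to tell the lines apart. The methods count 3 Q150 and 4 Q175 homozygotes, whereas the labels, which were followed, and a supplementary legend count 4 and 3. Each label is a separate mouse, and libraries of a group differed by more than sampling noise. HET and HOMO totals were 3274965 to 5219877 counts.

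For every event and mouse, log2((short + 0.5)/(long + 0.5)) was computed and fitted in limma 3.58.1 (R 4.3.3) with genotype and series of mouse numbers as terms, events having a mean of at least 10 counts. The moderated variances followed a trend with the counts, a covariate chosen in earlier work on these data. The series is a property of the mouse numbers and the labels do not call it a batch. Totals were tested as log2 of the counts scaled to each mouse's total. Mean exclusion was tested by exact permutation within series. The members and lists were chosen with earlier results of these data known. Named events were the 24 with the largest changes among those that passed, other events of those genes, those of Mtap7d2, Mag and Mlx, and up to 4 per list. Events outside this rule, including those that passed in both lines, were chosen after their values were seen. Alternatives were the series term, the samples, the count minimum, the pseudocount, centring, the variance trend, a quasi-binomial model, a minimum log2 change of 0.5 and leaving out each mouse. The scripts were tested on simulated data. Some genes are not reported here. Figures were drawn with matplotlib 3.10.9.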

Additional observations from a re-analysis of the deposited data

Results flagged for a closer look

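In the groups of 4 mice behind the named events, 7 of 112 had 1 mouse far from the other 3, and chance alone gives about 1 in 20 groups such a mouse. Among the HET mice, AK005608 had 37.0% exclusion in HET mouse 3 and 51.4% to 53.8% in the others, on few counts. Tsr1 had 2.80% in HET mouse 78 and 1.58% to 1.75% in the others. HET mouse 420, the single HET mouse of the 400s, stood above the other HET mice for Mlx, with 33.1% beside 22.6% to 23.9%, and for Chd5, with 75.7% beside 72.5% to 72.7%. Among the HOMO mice, mouse 421 was the low one for Nasp, with 94.1% beside 95.4% to 95.6%, and for Slc30a9, with 10.6% beside 13.3% to 13.6%. Rbm5 had 10.8% exclusion of its 61-base exon in HOMO mouse 34 and 8.04% to 8.46% in the others.

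The HOMO to HET change of the 106-base exon of Nbr1 differed between the lines by 0.97 on the log2 scale, by limma's test of the difference itself. Among the Q175 mutant mice, genotype cannot be told apart from the series of mouse numbers.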

How the results depend on the processing

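Beside the 98 events that passed of 1785, 32 passed with no series term, 39 in a fit of 13 mice with no series term, 0 with no variance trend, 35 with 13 mice, series and no variance trend (chosen after seeing the data), and 49 to 117 when 1 mouse was left out. In the fit of 13 mice with the series and the variance trend, 79 of the 98 passed. Centring gave 71, of which 56 were among the 98, and all 98 kept their direction in each setting that could fit them; AK005608 falls under the minimum of 50 counts. The series-adjusted rise of mean exclusion was 1.25 points in mice numbered under 100 alone, 0.602 points in the 400s alone and 0.896 to 1.25 points without 1 mouse; these designs hold too few mice to reach the threshold. For totals, 0 events passed with no series term, 0 with no variance trend, 79 after centring (11 higher, 68 lower) and 0 to 86 without 1 mouse, the 0 without HOMO 35 and the 86 without HET 78. The second step minus the first gave 0 with no series term, 0 with no variance trend and 0 to 2 without 1 mouse. Q175 HOMO against HET gave 0 with no variance trend, 3 with the WT mice and the series of mouse numbers in the fit (added after seeing the data) and 11 to 21 without 1 mouse. The difference between lines gave 0 with no variance trend, 3 after centring and 0 to 9 without 1 mouse. The causes were not tested.

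Of the 36 named events that passed, 0 changed direction in 683 values, but 229 of these values no longer passed, and 193 of them, in 27 events, were outside the fit of the 8 mice with no variance trend. Among the 20 named events that did not pass, 3 passed in 8 values: Sorbs2 8229 without HET 3 or HOMO 421, Mag 3991 at a minimum of 50 counts and without HOMO 34 or HOMO 421, and Mlx 5020 in mice numbered under 100 and without HET 420 or HOMO 421. Of these 20 events 5 changed direction, all with small changes. They are given with their event number in the files. Sorbs2 4596 (a 1581-base exon, -0.02) gave 0.19 with no series term, with 8 mice or 13, 0.025 with 13 mice and the series, with or without the variance trend, 0.0092 with pseudocount 5, 0.077 in the quasi-binomial model and -0.20 to 0.11 without 1 mouse. Ank2 4739 (a 99-base exon, 0.02) gave -0.088 after centring, -0.0619 in the quasi-binomial model and -0.61 to 0.61 without 1 mouse, and Ank2 9133 (a 24-base exon, 0.11) -0.00051 after centring. 6030446N20Rik 8298 (-0.04) gave 0.046 with no series term, with 8 mice or 13, and -0.16 to 0.071 without 1 mouse. Fbxw11 8865 (0.04) gave -0.020 in mice numbered under 100, -0.070 after centring and -0.020 to 0.11 without 1 mouse.

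No paired analysis was possible because the HET and HOMO mice share no mouse numbers.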
